A study of Mus musculus with 31 samples.

Results

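Cells differentiated from mouse embryonic stem cells and cortex taken from mice were compared over a stretch of development in each: the change in culture, d21 minus d12, was set against the change in cortex, P0 minus E13.5. The 21 libraries used, of 31 in the series, were 4 of d21 culture and 4 of d12 culture, each with 2 of the BJ1 cross and 2 of the JB6 cross, 7 of P0 cortex with 4 BJ1 and 3 JB6, and 6 of E13.5 cortex with 3 of each cross. All were first-generation hybrids of the strains C57BL/6 and JF1, with a C57BL/6 mother and a JF1 father in BJ1 and the parents exchanged in JB6. Genes were chosen by a rule on abundance alone: autosomal genes with a mean of 20 or more read bases over the 21 libraries, with both alleles added, of which 11009 were tested from 17289 listed in the 4 stage tables. Of 13692 autosomal genes listed in all 4 tables, 2683 were under that floor (the highest untested mean was 19.95, just below the lowest tested), and a further 110 over the floor were missing from at least 1 table and were left out. Each gene was then sorted by its 2 changes and by the test of their difference, here called the interaction.

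The culture libraries came from hybrid stem cell lines derived from blastocysts, whose C57BL/6 parent carried an Oct4-GFP transgene, so that in culture a cross is also a cell line. Per the labels the cells were grown on Matrigel in defined medium with B27, were given cyclopamine, a blocker of Hedgehog signalling, in an early window to favour dorsal telencephalon, and could be replated on laminin at d12. It is not stated whether the d21 libraries came from replated cells. All culture libraries were labelled male, and in cortex 6 of 7 P0 and 5 of 6 E13.5 libraries were labelled female. Tissue labels differ between the stages, Ctx at P0 and DT at E13.5, so the dissected region may differ as well; both are called cortex here, as in the series' text.

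In the embryo, cortical neurons are made by radial glia, progenitors that divide along the ventricle and later turn to making astrocytes and oligodendrocytes. At E13.5 deep-layer neurons are being born, whereas at P0 neuron production has largely ended, axons and first synapses form, and glia expand. Stem cells kept in defined medium with Hedgehog signalling blocked are known to pass through a related order of cell types without the vessels, meninges and incoming axons that surround cortex.

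Values are counts of read bases, that is, sequenced bases that fall on a position where the 2 strains differ and so can be assigned to an allele. Depth ran from 5266834 to 8618253 read bases per library (median 6334404), 13426 to 15173 features held at least 1 read base, and 10.6% to 20.7% of read bases were mitochondrial. Levels are given as CPM, counts scaled to a common library size after TMM normalization. A gene with more strain differences collects more read bases, so levels are compared between samples and never between genes. On a multidimensional scaling of all libraries, the axis that held 56.9% of the variation separated culture from cortex, and the next axis, with 26.7%, separated d21 and P0 from d12 and E13.5. The labels do not say whether replicates came from separate cultures or animals, so p-values measure the spread between these libraries, part of which may be technical. In tissue RNA, fewer cells of a type and less RNA per cell cannot be told apart.

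The cortical label was checked against defining markers, and the cultures held little of several. Emx1, a factor of dorsal telencephalon, averaged 0.104 ± 0.121 CPM at d21 and 1.25 ± 0.266 CPM at d12, against 16.8 ± 2.47 CPM at P0 and 54.5 ± 3.28 CPM at E13.5 (SD; n = 4, 4, 7 and 6), and was at 0 in 2 of the 4 d21 libraries. Neurod6 and Tbr1, factors of cortical projection neurons, averaged 0.952 and 3.04 CPM at d21 and 166 and 164 CPM at P0. Genes of other tissues were abundant in culture: Krt8, a keratin of simple epithelia, averaged 2051 ± 300.1 CPM at d21 and 1663 ± 489 CPM at d12, against 0.826 ± 0.705 CPM at P0 and 2.92 ± 2.71 CPM at E13.5. The culture libraries are therefore called by their day and not as cortex, and each culture change below is a change of a mixture that includes non-neural RNA.

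Most genes changed in at least 1 of the 2 systems, and those that changed in both mostly went the same way. In culture 6376 of 11009 genes (57.9%) passed an adjusted p of 0.05 in edgeR's quasi-likelihood test with Benjamini-Hochberg adjustment, 3718 higher at d21 (33.8%) and 2658 lower (24.1%). In cortex 8483 genes (77.1%) passed, 4235 higher at P0 (38.5%) and 4248 lower (38.6%). The 2 changes differed in 5834 genes (53.0%), with 3337 (30.3%) higher in culture relative to cortex and 2497 (22.7%) lower. The libraries of the 2 stages did not overlap for 4563 genes in culture (41.4%), with 4 libraries a stage, and for 6624 genes in cortex (60.2%), with 7 and 6. At an unadjusted p under 0.05 the shares were 62.1% in culture, 78.2% in cortex and 58.1% for the interaction. The larger number of cortex libraries gives the cortex test more power, so counts of calls do not rank the systems. The split of the culture calls depends on scaling: when any 1 of 5 E13.5 libraries was left out (BJ1 replicates 1, 2 and 3, JB6 replicates 2 and 3), the scaling moved to another library and the median culture change was below 0, against 0.08 with all libraries. The median absolute change was 0.48 in culture and 0.75 in cortex on the log2 scale.

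Of 5227 genes that passed in both systems, 4483 (85.8%) went the same way. These shared genes made up 40.7% of all genes tested, 2501 higher (22.7%) and 1982 lower (18.0%) at the later stage. Another 744 genes (6.76%) went in opposite directions, 473 higher in culture and lower in cortex (4.30%) and 271 lower in culture and higher in cortex (2.46%). Culture-only changes, which passed in culture and in the interaction but not in cortex, numbered 734 (6.67%), 490 higher (4.45%) and 244 lower (2.22%). Cortex-only changes numbered 2222 (20.2%), 1030 higher (9.36%) and 1192 lower (10.8%). For 1449 genes (13.2%) a change passed in 1 system and the interaction did not, so they were assigned to neither, 66 (0.600%) passed the interaction alone and 1311 (11.9%) passed nothing. Across all genes the 2 changes had a Pearson r of 0.55 and a Spearman rho of 0.59, given as a description since genes are not independent.

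**Figure D1:**
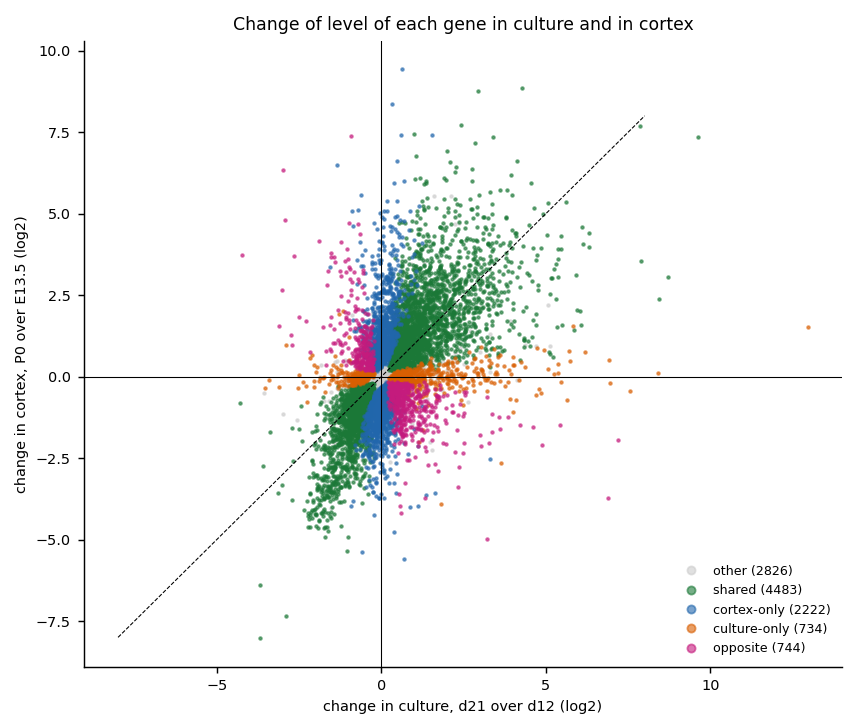
Change in culture (x axis, d21 over d12, log2) and in cortex (y axis, P0 over E13.5, log2) for each of the 11009 genes, coloured by class, with the dashed line marking equal changes. The 4483 shared genes fill the lower left and upper right, and many lie above the dashed line on the right and below it on the left, where the cortex change is the larger.

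Where genes were shared, the cortex change was more often the larger. Among the 2501 shared genes that rose, the interaction passed for 863 with the larger rise in cortex and for 295 with the larger rise in culture, and it did not pass for 1343; the median rise was 1.06 in culture and 1.39 in cortex (log2). Among the 1982 that fell, 851 fell further in cortex, 59 fell further in culture and 1072 did not pass, with medians of -0.73 in culture and -1.05 in cortex. The absolute gap between culture and cortex, on log2(mean CPM + 0.5), was wider between d21 and P0 than between d12 and E13.5 for 5797 of all 11009 genes (52.7%). It was wider for 1525 of the 2501 shared genes that rose (61.0%), with a median of 1.36 at the later pair and 1.06 at the earlier, and for 904 of the 1982 that fell (45.6%), with medians of 0.73 and 0.83.

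The genes that rose in both were led by Gfap, Ptgds, Gabbr2, Gabra5 and Fat2. Gfap, the intermediate filament of astrocytes, had 563, 304, 159 and 84.0 CPM in the d21 libraries, against 0.741, 0.901, 1.12 and 1.16 CPM in the d12 libraries. Its cortex values were 106, 123 and 152 CPM in the lowest, median and highest P0 library, against 0.200, 0.518 and 0.987 CPM in those of E13.5. The stages did not overlap in either system, and d21 BJ1 libraries were above d21 JB6 libraries. The change was 7.85 ± 0.33, adjusted p = 1.13e-13 in culture and 7.69 ± 0.29, adjusted p = 4.13e-16 in cortex, and the 2 did not differ detectably (interaction 0.15 ± 0.44, adjusted p = 0.889). Gabra5, a subunit of the GABA-A receptor, had 5.95, 6.20, 9.45 and 9.55 CPM in the d21 libraries, against 0.494, 0.450, 0.186 and 0 CPM in the d12 libraries. Cortex libraries had 209, 229.7 and 282 CPM in the lowest, median and highest P0 library, against 4.11, 7.86 and 10.3 CPM in those of E13.5. Its log2 changes were close, 4.91 in culture and 4.999 in cortex, although every P0 library was far above every d21 library. Gabbr2, a subunit of the metabotropic GABA-B receptor, changed by 5.61 in culture and 5.35 in cortex, and averaged 10.7 CPM at d21 and 67.7 CPM at P0. Ptgds, a prostaglandin D synthase made by meninges and choroid plexus as well as glia, rose more in culture (9.62) than in cortex (7.37, interaction adjusted p = 0.0174). Counts at d12 were few, with 8 read bases over the 4 libraries for Ptgds, 4 for Gabbr2 and 5 for Gabra5. The sizes of these culture changes are therefore uncertain. Fat2, an atypical cadherin, averaged 134 CPM at d21 and 3.06 CPM at P0.

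Most tested synaptic and axonal genes rose in both systems. Over all genes 33.8% rose and 24.1% fell in culture, and 38.5% rose and 38.6% fell in cortex. Of 20 tested genes of vesicle release, 19 rose and 1 fell in culture and 19 rose and 1 fell in cortex, with medians of 2.29 and 2.63 (log2) beside 0.08 and -0.01 over all genes. Syt1, the calcium sensor of transmitter release, averaged 25.6 CPM at d21 and 1.87 CPM at d12, and 327 CPM at P0 and 30.8 CPM at E13.5 (log2 change 3.76 in culture and 3.40 in cortex). Snap25, a membrane fusion protein, changed by 2.67 in culture and 2.33 in cortex. Pclo, a scaffold of the active zone, rose further in culture (3.05 against 2.33; interaction adjusted p = 0.0064), whereas Stx1a, which drives membrane fusion, rose by 1.01 in culture and further, by 3.02, in cortex (interaction adjusted p = 6.07e-08). The exceptions in the list were the vesicular glutamate transporters, which moved against each other and are described with the opposite genes.

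Of 18 postsynaptic and receptor genes, 16 rose in culture and 17 in cortex, and none fell in either (medians 2.56 and 2.82). Of all genes 33.8% rose in culture and 38.5% in cortex. Gria1, a subunit of the AMPA glutamate receptor, changed by 5.35 in culture and 3.93 in cortex, which did not differ detectably (interaction adjusted p = 0.2035). It held 3 read bases over the d12 libraries, so the size of its culture change is uncertain. Dlg4, the postsynaptic scaffold PSD-95, did not pass in culture (0.13, adjusted p = 0.356) and rose by 2.04 in cortex. Grik2, a kainate receptor subunit, was the reverse, with 2.30 in culture and 0.22 in cortex, which did not pass (adjusted p = 0.121). For the list as a whole the interaction passed for 8 genes in the direction of cortex and for 2 in the direction of culture. It passed in those directions for 22.7% and 30.3% of all genes.

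Of 15 axonal and cytoskeletal genes, 14 rose in both systems, with medians of 1.78 in culture and 1.76 in cortex. The interaction passed for 2, Ncam1 and Gap43, against 53.0% of all genes. Mapt, the microtubule protein tau, had 965, 1203, 1350 and 1190 CPM in the d21 libraries, against 86.2, 129, 48.2 and 65.4 CPM in the d12 libraries. Cortex libraries held 6814, 7090 and 7502 CPM in the lowest, median and highest P0 library, against 236, 458 and 534 CPM in those of E13.5. Tau was high at the later stage and the stages did not overlap in either system, and its 2 changes, 3.90 and 4.14, did not differ detectably (interaction adjusted p = 0.508). Ncam1, a neural adhesion molecule, rose by 1.68 in culture and by 2.72 in cortex. Of 17 ion channels and transporters, 13 rose in culture and 16 in cortex, and none fell. Over all genes 33.8% rose and 24.1% fell in culture, and 38.5% rose and 38.6% fell in cortex. Kcnq3, a potassium channel subunit, rose further in culture (2.93 against 0.90), and Atp1b1, a sodium pump subunit, further in cortex (1.79 against 4.59). Kcnq3 held 8 read bases over the d12 libraries, so the size of its culture change is uncertain.

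Of 16 tested astrocyte genes, 13 rose in culture and none fell, and in cortex 13 rose and 3 fell (medians 1.57 and 1.96). The rise was shared for 10, passed in cortex alone for 3 and went with a fall in cortex for 3. The interaction passed for 5 in the direction of culture and 4 in that of cortex, near the shares of all genes (30.3% and 22.7%). Of all genes 33.8% rose in culture, and 38.5% rose and 38.6% fell in cortex. Aldh1l1, a folate enzyme used as an astrocyte marker, rose by 3.70 in culture and 4.09 in cortex, and Aqp4, the astrocytic water channel, by 2.84 and 3.81. Aldoc, Gja1 and Fgfr3, which radial glia also express, rose in culture and fell in cortex, with Fgfr3 at 0.38 and -2.07. Tnc, a matrix protein of glial progenitors, rose by 1.04 in culture and by 4.73 in cortex (interaction adjusted p = 1.64e-11).

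**Figure D2:**
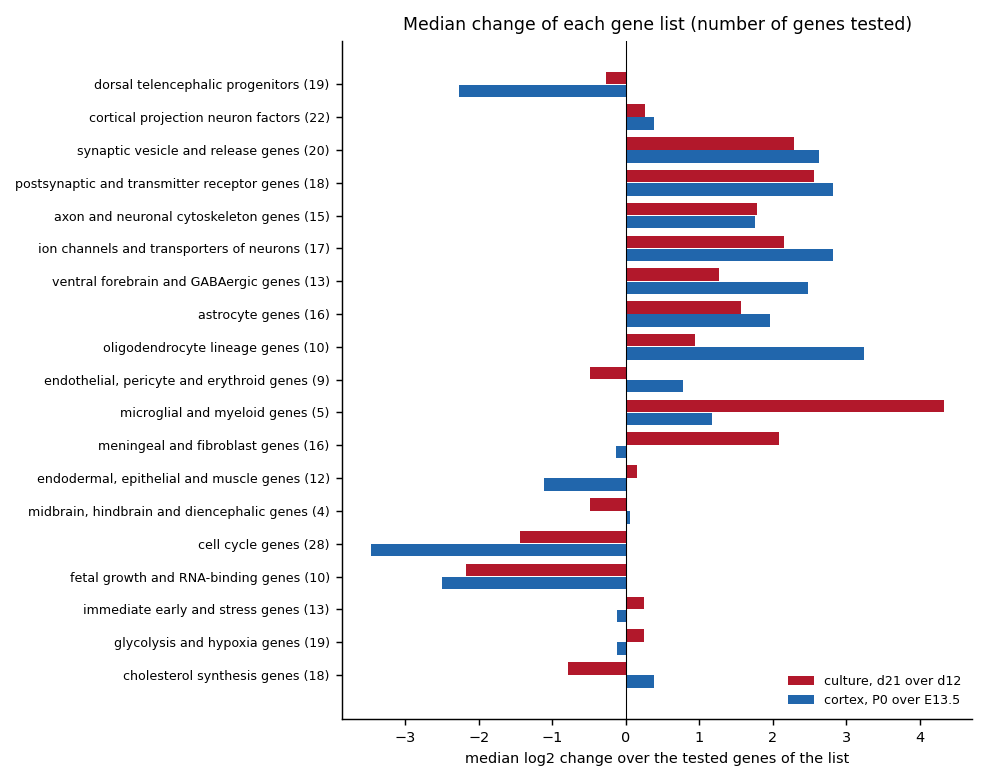
Median log2 change over the tested genes of each of the 19 gene lists in culture (red, upper bar) and in cortex (blue, lower bar), with the number of genes tested in brackets. Synaptic and axonal lists have positive medians in both systems, cell cycle genes fall further in cortex (-3.47, against -1.44 in culture), and the meningeal and cholesterol lists have medians of opposite sign.

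The genes that fell in both were led by Hmga2, Sall4, Prtg, Chek1 and Kif18a. Hmga2, a chromatin protein of fetal progenitors, had 54.3, 62.5, 68.1 and 47.1 CPM in the d21 libraries, against 692, 704, 795 and 822 CPM in the d12 libraries. In cortex it had 1.08, 1.99 and 2.41 CPM in the lowest, median and highest P0 library, against 94.0, 166 and 237 CPM in those of E13.5. It was lower at the later stage in every library, and the fall in cortex was the larger (-3.69 in culture and -6.39 in cortex; interaction adjusted p = 1e-07). Sall4, a zinc finger factor of stem cells, fell by 2.90 in culture and stood at 15.9 CPM at d21, while in P0 cortex it held 3 read bases over all 7 libraries, against 553 over the 6 E13.5 libraries. Prtg, a receptor of the immunoglobulin superfamily in early neural tissue, changed by -3.59 in culture and -2.73 in cortex, which did not differ detectably (interaction adjusted p = 0.128). Of 10 genes on the list of fetal growth and RNA-binding genes, 10 fell in culture and 8 in cortex. Of all genes 24.1% fell in culture and 38.6% in cortex. Igf2bp2, which binds messenger RNA, fell further in cortex (-1.22 in culture and -3.09 in cortex), whereas Lin28b, which blocks processing of let-7 miRNAs, fell in culture (-3.53) and did not pass in cortex (-0.34, adjusted p = 0.167; interaction adjusted p = 1.19e-07).

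Every tested gene of the cell cycle list fell further in cortex than in culture. All 28 fell in cortex, where 38.6% of all genes fell, 27 of 28 fell in culture, where 24.1% did, and the interaction passed in the direction of culture for 28 of 28, against 30.3% of all genes. The median was -1.44 in culture and -3.47 in cortex (log2). Ccnb1, the cyclin that starts mitosis, averaged 49.9 CPM at d21 and 217 CPM at d12, against 21.1 CPM at P0 and 429.5 CPM at E13.5, a change of -2.10 in culture and -4.34 in cortex. Mki67, the proliferation antigen, changed by -1.22 and -4.58, and Top2a, a topoisomerase of dividing cells, by -2.14 and -4.14. Ccnd2, a cyclin of radial glia, was the exception in culture (0.03, adjusted p = 0.838) and fell by 2.76 in cortex. Summed over the list, the level was 1829 to 2266 CPM in d21 and 4692 to 5155 CPM in d12 libraries, against 885 to 1089 CPM in P0 and 8812 to 10540 CPM in E13.5 libraries. The summed level was therefore lower at P0 than at d21 and higher at E13.5 than at d12, without overlap. Chek1, a checkpoint kinase, and Kif18a, a mitotic kinesin, also fell further in cortex, with -2.35 and -2.27 in culture and -4.09 and -3.81 in cortex. Their levels at the later stages overlapped, with means of 3.54 and 6.83 CPM at d21 and 4.29 and 7.93 CPM at P0.

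Promoters of genes that fell together are shown because cell cycle promoters are known for a pair of short elements: CCAAT, the site of NF-Y, and the cell cycle homology region, TTTGAA. The sequences are those of RefSeq for GRCm38.p6, 250 bases before to 50 after the start of each gene, and were matched by gene number. Capitals mark CCAAT or its reverse complement ATTGG, and TTTGAA, whose reverse complement is TTCAAA. The motifs share no base in these sequences.
Ccnb2 (chr9:70421505-70421804, minus strand): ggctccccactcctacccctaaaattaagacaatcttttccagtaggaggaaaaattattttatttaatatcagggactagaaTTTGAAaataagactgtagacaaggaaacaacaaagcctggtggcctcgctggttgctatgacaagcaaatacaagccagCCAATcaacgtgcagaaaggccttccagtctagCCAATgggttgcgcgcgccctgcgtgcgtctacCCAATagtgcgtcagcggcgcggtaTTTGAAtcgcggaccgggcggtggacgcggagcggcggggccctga
Cdk1 (chr10:69352863-69353162, minus strand): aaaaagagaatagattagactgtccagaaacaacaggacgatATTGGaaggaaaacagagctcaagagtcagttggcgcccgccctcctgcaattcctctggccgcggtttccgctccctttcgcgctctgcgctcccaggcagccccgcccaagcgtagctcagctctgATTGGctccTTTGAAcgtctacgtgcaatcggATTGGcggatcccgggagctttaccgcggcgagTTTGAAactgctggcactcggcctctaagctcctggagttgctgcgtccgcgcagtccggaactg
Cdc20 (chr4:118437294-118437593, minus strand): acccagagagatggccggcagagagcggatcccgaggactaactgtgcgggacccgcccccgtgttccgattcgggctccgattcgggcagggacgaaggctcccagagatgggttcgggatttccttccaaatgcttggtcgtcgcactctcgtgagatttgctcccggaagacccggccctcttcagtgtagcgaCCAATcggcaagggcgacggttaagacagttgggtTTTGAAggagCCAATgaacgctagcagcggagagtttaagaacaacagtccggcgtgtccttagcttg
Ccnb2, a mitotic cyclin, fell by 1.93 in culture and by 3.46 in cortex, Cdk1, the kinase it activates, fell by 1.60 and by 3.47, and Cdc20, an activator of the anaphase-promoting complex, fell by 1.59 and by 3.54 (log2). Over both strands, CCAAT was found in the promoters of 18 of the 22 cell cycle genes with an entry (81.8%) and TTTGAA in 10 (45.5%), against 41.1% and 20.2% of all 27025 genes with a promoter in the table. A match is a string of letters and not a measured binding site.

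**Figure D3:**
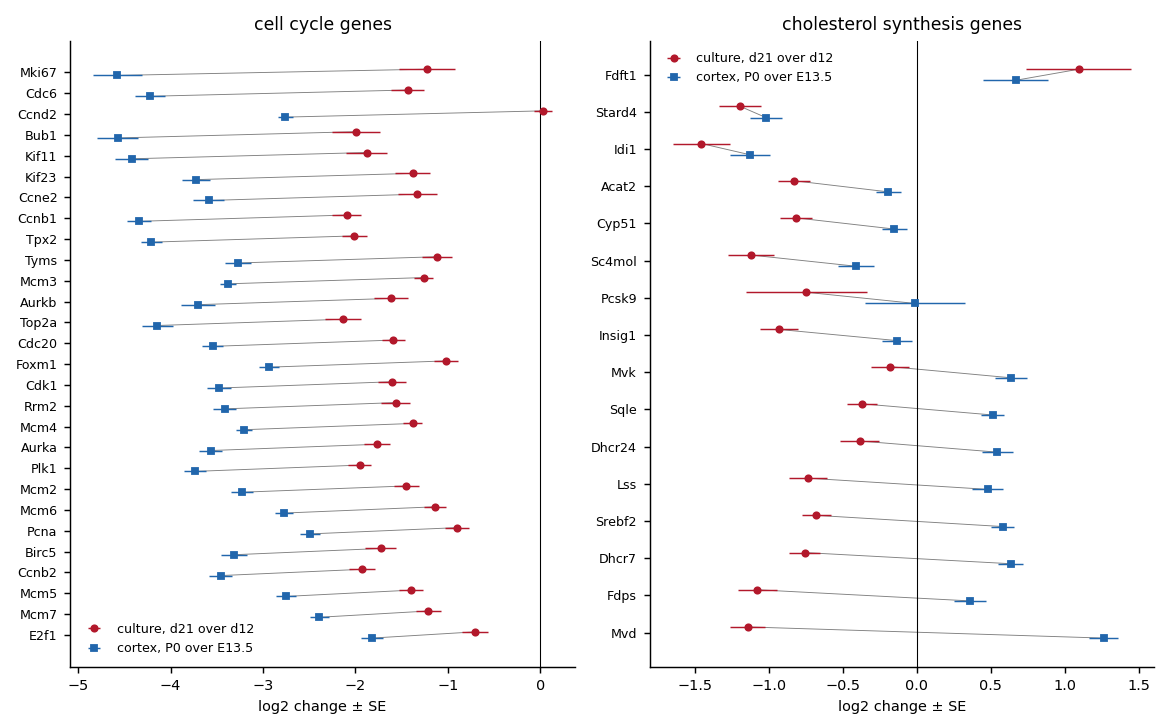
Log2 change ± SE of the 28 tested cell cycle genes (left) and of 16 of the 18 tested cholesterol synthesis genes (right) in culture (red circles) and in cortex (blue squares), ordered by the difference between them. All 28 cell cycle genes lie further left in cortex, whereas cholesterol genes such as Mvd lie left of 0 in culture (-1.14) and right of 0 in cortex (1.26).

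Genes that changed in cortex alone included dorsal progenitor genes. Of 19 tested, 6 fell and 2 rose in culture, and 17 fell and 1 rose in cortex. Over all genes 24.1% fell and 33.8% rose in culture, and 38.6% fell and 38.5% rose in cortex. Of the 19, 10 were cortex-only falls, against 10.8% of all genes. The interaction passed in the direction of culture for 15, against 30.3% of all genes. Pax6, a transcription factor of radial glia, averaged 7.56 CPM at d21 and 8.37 CPM at d12, against 10.8 CPM at P0 and 103 CPM at E13.5; its culture change was -0.16 (adjusted p = 0.658), and it fell by 3.26 in cortex. Eomes, a factor of intermediate progenitors, was low in culture at both days (2.91 CPM at d21 and 3.47 CPM at d12) and fell by 3.54 in cortex. Neurog2, a proneural factor, fell in both, -1.01 in culture and -4.93 in cortex; its culture call was lost without BJ1 replicate 1 of d21 (-0.65, adjusted p = 0.0512). Tfap2c, a transcription factor of cortical progenitors, had 38.7, 60.4, 65.3 and 58.2 CPM in the d21 libraries, against 58.8, 39.6, 86.5 and 28.3 CPM in the d12 libraries. Its cortex values were 4.84, 8.97 and 11.5 CPM in the lowest, median and highest P0 library, against 92.3, 111 and 126 CPM in those of E13.5. The d21 and d12 ranges overlapped and the P0 and E13.5 ranges did not, and the interaction was 3.78 ± 0.33, adjusted p = 5.6e-09. Vim, the filament of radial glia and of many non-neural cells, averaged 2003 CPM at d21 and 2070 CPM at d12, against 284 CPM at P0 and 2186 CPM at E13.5.

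The cortex-only falls with the largest interaction were Dct, Rspo1, Tfap2c, Pdlim1, Msrb3 and Mab21l3. Dct, an enzyme of melanin synthesis, was near 0 in culture, with 30 read bases at d21 and 22 at d12, and had 0.818, 5.25 and 6.28 CPM in the lowest, median and highest P0 library, against 94.9, 121 and 173 CPM in those of E13.5. Rspo1, a secreted enhancer of Wnt signalling, averaged 27.7 CPM at d21 and 33.7 CPM at d12, against 2.53 CPM at P0 and 53.0 CPM at E13.5, and its interaction did not pass in BJ1 libraries alone (adjusted p = 0.0656). Pdlim1, a cytoskeletal adaptor, was higher in culture at both days than in any cortex library (242 and 254 CPM, against 2.38 and 31.8 CPM at P0 and E13.5).

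The cortex-only rises were led by Rasal1, Usp43, Grb7, St6galnac5, Ccbe1 and Doc2b. Usp43, a deubiquitinating enzyme, had 14.9, 16.8, 11.1 and 11.7 CPM in the d21 libraries, against 13.3, 10.1, 14.5 and 4.35 CPM in the d12 libraries. Cortex libraries held 63.9, 67.7 and 76.6 CPM in the lowest, median and highest P0 library, against 0.181, 0.960 and 1.95 CPM in those of E13.5. The culture stages overlapped and the cortex stages did not (0.37 with adjusted p = 0.229 in culture, and 5.93 in cortex). Doc2b, a calcium sensor of transmitter release, changed by 0.06 in culture and 4.59 in cortex, and Rasal1, a negative regulator of Ras, by -0.63 and 5.58. Grb7, an adaptor of receptor tyrosine kinases, was cortex-only by its change but not by its level, since it averaged 102 CPM at d21 and 5.06 CPM at P0. Among projection neuron factors, Mef2c, an activity-dependent regulator, averaged 5.92 CPM at d21 and 4.41 CPM at d12, against 515 CPM at P0 and 30.9 CPM at E13.5, and 115 of the 2222 cortex-only genes had a mean under 20 read bases in culture.

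Oligodendrocyte lineage genes rose mainly in cortex. Of 10 tested, 5 rose and none fell in culture, and 9 rose and 1 fell in cortex (medians 0.94 in culture and 3.24 in cortex). The interaction passed in the direction of cortex for 8, against 22.7% of all genes. Over all genes 33.8% rose and 24.1% fell in culture, and 38.5% rose and 38.6% fell in cortex. Olig1, a lineage factor, rose in both, to 21.1 CPM at d21, against 4.30 CPM at d12, and to 269.6 CPM at P0, against 1.18 CPM at E13.5. Olig2, its partner, did not pass in culture (-0.66, adjusted p = 0.18) and rose by 4.12 in cortex. Sox10, which drives oligodendrocyte precursors, averaged 0.854 CPM at d21 and 21.4 CPM at P0. For 13 tested genes of ventral forebrain and GABAergic neurons, 6 rose and 3 fell in culture, and 11 rose and none fell in cortex. The 3 falls in culture are near the share of all genes (24.1%). For 7 the interaction passed in the direction of cortex. Gad1, which makes GABA, rose alike (3.03 and 3.17), while Lhx6, a factor of interneurons that migrate into cortex, did not pass in culture (0.27, adjusted p = 0.542) and rose by 3.79 in cortex.

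Culture-only rises were led by Krtdap, Krt17, Pkp1, Gabrp, Prelp and Wfikkn2. Krtdap, a protein of differentiating keratinocytes, had 847, 1309, 302 and 150.2 CPM in the d21 libraries, against 0, 0.225, 0 and 0 CPM in the d12 libraries, and 14 read bases over the 7 P0 and 4 over the 6 E13.5 libraries. Krt17, a keratin of stratified epithelia, and Pkp1, a desmosome protein, averaged 127 and 157 CPM at d21 and 0.684 and 1.20 CPM at d12, with 3 and 4 read bases at P0 and 4 and 4 at E13.5. Gabrp, a GABA-A receptor subunit found in epithelia, averaged 137 CPM at d21 and 43.2 CPM at d12, and had 0 read bases at P0 and 10 at E13.5. No fold is given for these against cortex, where counts are near 0, and their interaction calls were fragile. That of Krtdap was lost without JB6 replicate 3 of E13.5 (adjusted p = 0.987), that of Krt17 without BJ1 replicate 3 of E13.5 (adjusted p = 0.121) and that of Gabrp without any of BJ1 replicate 1 of d21, JB6 replicate 1 of d12, BJ1 replicate 3 of E13.5 or BJ1 replicate 4 of P0 (adjusted p of 0.052, 0.0659, 1 and 0.0587). That of Pkp1 did not pass on the B6 allele alone (adjusted p = 0.849). Prelp, a matrix proteoglycan, was measured in both systems. It had 137, 123, 92.8 and 99.2 CPM in the d21 libraries, against 5.18, 3.60, 1.49 and 4.93 CPM in the d12 libraries. In cortex it had 5.71, 7.88 and 14.2 CPM in the lowest, median and highest P0 library, against 3.79, 13.52 and 16.2 CPM in those of E13.5. The culture stages stood well apart and the cortex stages overlapped, and the interaction was 5.37 ± 0.42, adjusted p = 7.9e-10. Wfikkn2, a secreted protease inhibitor, averaged 127 CPM at d21 and 5.45 CPM at d12, against 21.2 CPM at P0 and 38.0 CPM at E13.5. Of the 490 culture-only rises, 80 had a mean under 20 read bases in cortex.

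Meningeal and fibroblast genes rose in culture as a list. Of 16 tested, 11 rose and 1 fell in culture, and 3 rose and 5 fell in cortex (medians 2.09 in culture and -0.13 in cortex). The interaction passed in the direction of culture for 11 and of cortex for none, against 30.3% and 22.7% of all genes. In cortex 38.5% of all genes rose and 38.6% fell. Col1a1, a chain of fibrillar collagen, averaged 459 CPM at d21 and 49.1 CPM at d12, against 1.90 CPM at P0 and 2.80 CPM at E13.5. Dcn, a collagen-binding proteoglycan, changed by 3.22 in culture and -0.63 in cortex (interaction adjusted p = 1.5e-07). The summed level of the list was 14090 to 20780 CPM in d21 and 4326 to 5219 CPM in d12 libraries. It was 467.2 to 726.3 CPM in P0 and 320.8 to 1473 CPM in E13.5 libraries, and no marker averaged below 1 CPM in any of the 4 stages. Much of the d21 sum was Col3a1, another collagen, with 6930 to 11110 CPM in d21 libraries. A sum weights genes by their strain differences, so sums are compared between stages only. The 12 tested endodermal, epithelial and muscle genes summed to 6093 to 7246 CPM at d21 and 3515 to 6248 CPM at d12, against 29.7 to 39.1 CPM at P0 and 14.6 to 68.6 CPM at E13.5, with 3 higher and 1 lower in culture and Afp at 0 in P0. Of all genes 33.8% were higher and 24.1% lower in culture, and the sums of the endodermal, epithelial and muscle list overlapped between d21 and d12. The meningeal list moved with the culture change, and its part in the other culture results was not tested.

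Microglial genes rose in both systems and further in culture, and 1 of the d21 libraries carried much of their d21 mean. All 5 tested of 14 listed (Csf1r, Cx3cr1, Ctss, Trem2 and Mpeg1) rose in both, with medians of 4.33 in culture and 1.18 in cortex. The interaction passed in the direction of culture for 5 of 5, against 30.3% of all genes. Cx3cr1, the fractalkine receptor, had 10.6, 51.8, 4.82 and 6.29 CPM in the d21 libraries, against 0.247, 0.676, 0.558 and 0.871 CPM in the d12 libraries. It averaged 25.6 CPM at P0 and 13.7 CPM at E13.5. Trem2, a lipid receptor of myeloid cells, had 16.9, 67.7, 3.82 and 7.16 CPM in the d21 libraries, against 0.494, 0, 0.744 and 0.290 CPM in the d12 libraries, and averaged 10.8 CPM at P0 and 3.72 CPM at E13.5. BJ1 replicate 2 of d21 was the highest of its group for Cx3cr1, Ctss, Trem2 and Mpeg1. Without it the d21 mean was 7.24 CPM for Cx3cr1, against 18.4 CPM with it, and 9.30 CPM for Trem2, against 23.9 CPM with it. The median culture change was then 3.51, and the interaction still passed in the direction of culture for 5 of 5, with adjusted p of 1.8e-05 for Cx3cr1 and 0.000689 for Trem2. The 5 summed to 105.4 to 331.7 CPM in d21 libraries (up to 149.1 CPM without that library) and 10.45 to 29.4 CPM in d12 libraries, against 127.8 to 168.2 CPM in P0 and 42.3 to 81.4 CPM in E13.5 libraries. The cortex call of Ctss, a lysosomal protease, was lost without BJ1 replicate 2 of E13.5 (0.62, adjusted p = 0.0572). Of 9 endothelial and pericyte genes, 2 rose and 2 fell in culture, beside 33.8% and 24.1% of all genes, and 6 rose and 1 fell in cortex, where 38.5% and 38.6% did; Tie1, an endothelial receptor, fell by 1.52 in culture and rose by 0.78 in cortex.

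Culture-only falls were led by Crabp1, Fignl2, Arid3b, Nr6a1, Gpx3 and Lrp2. Crabp1, which binds retinoic acid, had 281, 240.0, 144 and 126 CPM in the d21 libraries, against 2511, 2305, 1444 and 1835 CPM in the d12 libraries. Its cortex values were 13.2, 20.4 and 61.8 CPM in the lowest, median and highest P0 library, against 18.1, 27.6 and 34.5 CPM in those of E13.5. It was far higher in culture than in cortex at both days, and changed in culture (-3.40 ± 0.29, adjusted p = 3.37e-09) and not detectably in cortex (-0.09, adjusted p = 0.735). Arid3b, a DNA-binding protein, averaged 12.8 CPM at d21 and 66.3 CPM at d12, against 8.32 CPM at P0 and 8.97 CPM at E13.5, so it stood well above cortex at d12 and its range overlapped that of cortex at d21. Nr6a1, an orphan nuclear receptor of early embryos, changed by -1.88 in culture and -0.04 in cortex, Gpx3, a secreted peroxidase, by -1.78 and -0.04, and Fignl2, an ATPase, by -1.94 and 0.29. Lrp2, an endocytic receptor of neuroepithelium and other epithelia, changed by -2.05 in culture and -0.31 in cortex. In JB6 libraries alone the interaction of Fignl2 and Lrp2 did not pass (adjusted p of 0.275 and 0.141).

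**Figure D4:**
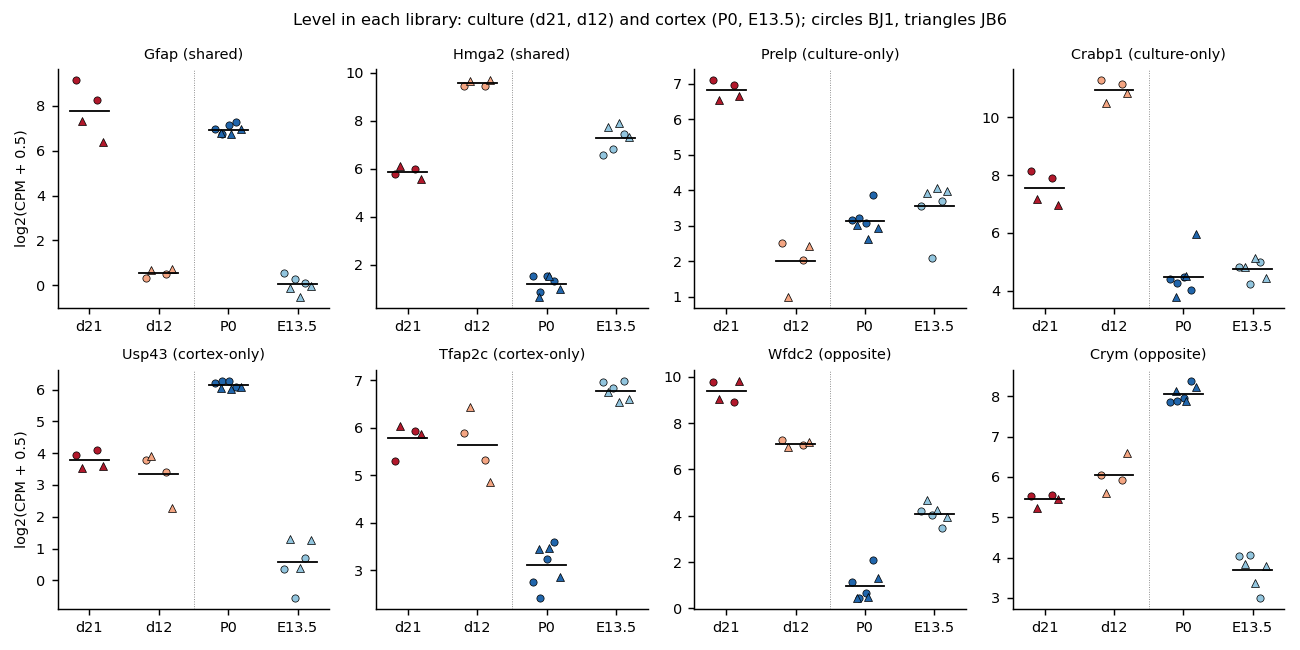
Level of 8 genes in each library as log2(CPM + 0.5), with d21 and d12 culture on the left and P0 and E13.5 cortex on the right of each panel; circles are BJ1, triangles JB6 and bars the mean of the log2 values. The panels show a shared rise (Gfap), a shared fall (Hmga2), culture-only changes (Prelp and Crabp1), cortex-only changes (Usp43 and Tfap2c) and opposite changes (Wfdc2 and Crym).

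The opposite genes that rose in culture and fell in cortex were led by Wfdc2, Lhx9, Slc30a10, Celsr1, Dtx3l and Nxph4. Wfdc2, a secreted epithelial protein, had 889.9, 481, 535 and 903 CPM in the d21 libraries, against 152, 134, 126 and 144 CPM in the d12 libraries. Cortex libraries held 0.866, 1.09 and 3.76 CPM in the lowest, median and highest P0 library, against 10.7, 17.02 and 25.1 CPM in those of E13.5. Neither pair of stages overlapped, and culture was above cortex throughout (2.34 ± 0.22, adjusted p = 1.09e-08 in culture and -3.38 ± 0.30, adjusted p = 5.35e-10 in cortex). Slc30a10, a manganese exporter, had 34.0, 17.9, 42.4 and 25.6 CPM in the d21 libraries, against 3.21, 4.05, 2.23 and 5.22 CPM in the d12 libraries. In cortex it had 74.4, 82.6 and 89.0 CPM in the lowest, median and highest P0 library, against 226, 268 and 379.5 CPM in those of E13.5. Here cortex was above culture at both stages and the gap was narrower between d21 and P0. Celsr1, a cadherin of planar cell polarity, changed by 1.64 and -2.67, and stood at 75.5 CPM at d21 and 77.4 CPM at E13.5. Lhx9, a LIM homeodomain factor, averaged 7.96 CPM at d21 and 0.831 CPM at d12, against 12.5 CPM at P0 and 50.97 CPM at E13.5. For 300 of the 473 genes of this kind (63.4%) the absolute gap to cortex was wider at the later pair, against 5797 of all 11009. That share follows in part from the sorting, since the interaction measures how the gap, culture minus cortex, changes. Its median was -0.22 at the earlier pair and 1.28 at the later.

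Nuclear factor I genes, which push radial glia toward differentiation, belonged here too: Nfia averaged 19.4 CPM at d21 and 5.05 CPM at d12, against 36.9 CPM at P0 and 97.4 CPM at E13.5 (interaction 3.36 ± 0.21, adjusted p = 3.84e-11), and Nfib followed it (2.15 and -1.08). Slc17a6, the vesicular glutamate transporter of many subcortical and immature neurons, rose by 1.94 in culture and fell by 1.34 in cortex. Slc17a7, the transporter typical of mature cortical neurons, did the opposite (-1.76 in culture and 1.52 in cortex), with 3.14 CPM at d21 and 10.99 CPM at d12, against 294 CPM at P0 and 103 CPM at E13.5.

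Genes that fell in culture and rose in cortex were led by Palm2, Crym, Spnb1, Unc5c and Ppp1r16b. Crym, which binds thyroid hormone, had 45.9, 46.8, 36.8 and 43.4 CPM in the d21 libraries, against 65.2, 59.9, 48.4 and 95.6 CPM in the d12 libraries. Its cortex values were 232, 249 and 332 CPM in the lowest, median and highest P0 library, against 7.48, 13.7 and 16.3 CPM in those of E13.5. The later stage was the lower in culture and the higher in cortex, with no overlap (-0.64 ± 0.20, adjusted p = 0.00803 in culture and 4.38 ± 0.18, adjusted p = 1.44e-15 in cortex). Unc5c, a netrin receptor, changed by -1.07 in culture and 3.22 in cortex, Ppp1r16b, a regulator of protein phosphatase, by -0.94 and 3.31, and Spnb1, a spectrin, by -1.003 and 3.62. Palm2, a membrane-associated protein, passed narrowly in culture (-0.70 ± 0.29, adjusted p = 0.0405). For 105 of the 271 genes of this kind (38.75%) the absolute gap to cortex was wider at the later pair. This share too follows in part from the sorting. The median gap, culture minus cortex, was 1.05 at the earlier pair and -0.30 at the later.

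Cholesterol synthesis genes fell in culture, and most of those that passed in cortex rose. Of 18 tested, 1 rose and 15 fell in culture, and 10 rose and 5 fell in cortex (medians -0.78 in culture and 0.38 in cortex). Over all genes 33.8% rose and 24.1% fell in culture, and 38.5% rose and 38.6% fell in cortex. Of the 18, 8 were opposite genes that fell in culture, against 2.46% of all genes. The interaction passed in the direction of cortex for 13 and of culture for none, against 22.7% and 30.3% of all genes. Mvd, which makes the isoprenoid unit of the pathway, averaged 178 CPM at d21 and 392 CPM at d12, against 158 CPM at P0 and 64.9 CPM at E13.5, a change of -1.14 ± 0.12, adjusted p = 4.68e-08 in culture and 1.26 ± 0.10, adjusted p = 6.25e-11 in cortex. Fdps, which makes farnesyl diphosphate, changed by -1.08 and 0.36, and Srebf2, the transcription factor of the pathway, by -0.68 and 0.58. Idi1, an isomerase of the pathway, fell in both (-1.45 and -1.13). The promoters of Mvd, an opposite gene, and Idi1, a shared one, are printed to set both kinds side by side, with CCAAT or ATTGG in capitals.
Mvd (chr8:122443373-122443672, minus strand): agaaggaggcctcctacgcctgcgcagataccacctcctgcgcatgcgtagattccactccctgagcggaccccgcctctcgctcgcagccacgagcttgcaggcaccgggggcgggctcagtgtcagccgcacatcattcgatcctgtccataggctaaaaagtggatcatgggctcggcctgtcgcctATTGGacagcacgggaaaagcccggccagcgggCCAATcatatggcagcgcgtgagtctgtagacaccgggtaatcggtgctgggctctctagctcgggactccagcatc
Idi1 (chr13:8885356-8885655, plus strand): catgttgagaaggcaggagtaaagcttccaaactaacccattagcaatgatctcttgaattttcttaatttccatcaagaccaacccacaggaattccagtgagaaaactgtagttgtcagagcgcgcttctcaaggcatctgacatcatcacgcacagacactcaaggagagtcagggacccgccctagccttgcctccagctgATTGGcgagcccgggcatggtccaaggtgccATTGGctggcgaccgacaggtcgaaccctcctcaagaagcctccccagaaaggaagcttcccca
Both hold 2 such sites. Of the 10 listed genes with an entry in the promoter table, 9 held CCAAT on either strand (90.0%), against 41.1% of all genes. None held the sterol element searched as TCACNCCAC, which 1.44% of all promoters held. With 10 promoters and so rare a string, finding none does not show that these genes lack sterol elements.

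Counts for genes of energy supply and of immediate response are read against all genes, of which 33.8% were higher and 24.1% lower in culture and 38.5% higher and 38.6% lower in cortex. Of 19 glycolytic and hypoxia genes, 8 rose and 2 fell in culture and 8 rose and 8 fell in cortex. Slc2a3, the neuronal glucose transporter, fell by 0.71 in culture and rose by 2.08 in cortex, whereas Hk2, a hexokinase of dividing cells, did not pass in culture (-0.24, adjusted p = 0.198) and fell by 2.73 in cortex. Of 13 immediate early and stress genes, 4 rose and none fell in culture, and in cortex 5 rose and 3 fell; Btg2, which restrains division of progenitors, did not pass in culture (0.08, adjusted p = 0.473) and fell by 2.94 in cortex. Only 4 of 23 listed midbrain, hindbrain and diencephalic genes were over the floor, and Lmx1a, of roof plate and midbrain, averaged 42.4 CPM at d21 and 46.6 CPM at d12, against 2.63 CPM at P0 and 27.02 CPM at E13.5.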

How the data were processed

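Libraries were strand-specific polyadenylated RNA (TruSeq) from cultured cells and cortex. Per the submitters' processing notes, CASAVA 1.8.2, Novoalign, HTSeq and edgeR were among the tools and mm9 was the build. Per the file headers and readme, the authors deposited, for each gene and library, raw counts of sense read bases at strain differences, found with SAMtools mpileup 0.1.18; genes that share a position stand under joined names. Both alleles were added. Counts were not normalized by the authors and depend on the number of strain differences in a gene.

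Counts of features listed in all 4 stage tables, autosomal and with a mean of 20 or more, were fitted with edgeR 4.0.16 in R 4.3.3 (TMM, robust quasi-likelihood), with 4 stage terms and cross within culture and within cortex. Contrasts were d21 minus d12, P0 minus E13.5 and their difference, with Benjamini-Hochberg adjustment over 11009 features at 0.05. An SE is the absolute log2 change over the square root of F, and that of the interaction is the root of the summed squares. CPM are TMM-scaled, and gaps and plots use a pseudocount of 0.5. Genes called in both systems are shared or opposite; those called in 1 and in the interaction belong to that system only.

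Named genes have a mean of 100 or more read bases and no overlap of libraries in the change that passed: 5 per direction by the smaller change (shared), otherwise 6 by the interaction; from each list, the first 3 tested and up to 3 per direction that passed the interaction. Other list members are named as examples, and a few genes that the rule or the lists hold are not reported here. The members, the 19 lists and the tests were chosen with earlier results of these data known. On simulated data at log2 changes of 1 and 2 over 11009 features, the test recovered 97% and 100% in culture and 100% in cortex at both. For the interaction it recovered 86% and 100%. The simulation gave all genes the same spread, no difference between culture and cortex or between crosses, and few changed genes. It checks that the contrasts work and does not measure power in these data. Alternatives were DESeq2 1.42.0, other scalings, floors, alleles, crosses, thresholds, the replicate block and leaving out each library. Stem cell and E14 libraries were not analysed here. Any 2 libraries of a group differed by more than independent counts would (chi-square per degree of freedom 2.20 to 28.7). A read can cover several strain differences, so read bases are not independent counts. The check therefore does not separate technical from other spread.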

Additional observations from a re-analysis of the deposited data

Results flagged for a closer look

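Of 184 groups of libraries examined for the genes named by class, 20 values stood far from the other libraries of their group. The rule is built so that chance alone marks about 1 in 20 groups. That rate does not hold where almost all libraries are at 0, as for Krtdap at d12, so the number of values is not set against it. Several of the values fall in a few cortex libraries. In JB6 replicate 3 of P0, Crabp1 (61.84 CPM), Rasal1 (100.4 CPM), Doc2b (177.5 CPM) and Krt17 (0.4908 CPM) were high and Dct was low (0.8179 CPM). In BJ1 replicate 4 of P0, Prelp (14.16 CPM), St6galnac5 (107.1 CPM) and Wfdc2 (3.76 CPM) were high, and in JB6 replicate 2 of P0 Mab21l3 was high (2.948 CPM). In JB6 replicate 3 of E13.5, Krtdap (0.6324 CPM) and Fignl2 (3.162 CPM) were high and Mab21l3 (10.43 CPM) and Nxph4 (38.89 CPM) were low. In BJ1 replicate 3 of E13.5, Krt17 (0.5613 CPM) and Gabrp (1.871 CPM) were high. In culture, JB6 replicate 1 of d21 was high for Nr6a1 (25.72 CPM). BJ1 replicate 2 of d12 was high for Krtdap (0.2252 CPM), Wfikkn2 (14.19 CPM) and Lhx9 (2.702 CPM), and BJ1 replicate 1 of d12 was high for Dct (2.469 CPM).

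For the 11 genes named as leading the opposite changes, the changes in culture and in cortex had opposite signs and differed in edgeR's test of the interaction. Membership of that class requires both. Other opposite genes, such as Nfia and Slc17a6, are described above. The difference, culture minus cortex on the log2 scale, was 5.72 for Wfdc2, 5.29 for Lhx9, 4.79 for Slc30a10, 4.31 for Celsr1, 4.13 for Dtx3l and 3.38 for Nxph4. It was -5.39 for Palm2, -5.02 for Crym, -4.62 for Spnb1, -4.29 for Unc5c and -4.25 for Ppp1r16b.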

How the results depend on the processing

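Requiring a log2 value of 1 or more left 2413 calls in culture, 4197 in cortex and 3010 in the interaction, with 1540 shared, 121 opposite and 412 culture-only genes. JB6 libraries alone gave 3378 interaction calls, 339 opposite and 474 culture-only genes, and an adjusted p of 0.01 gave 446 opposite genes. Fewer genes kept their class than such counts show. In JB6 libraries alone 3025 of 4483 shared, 280 of 744 opposite, 262 of 734 culture-only and 1097 of 2222 cortex-only genes kept it. In BJ1 libraries alone the numbers kept were 3283, 496, 387 and 1605. Without BJ1 replicate 2 of E13.5 they were 4108, 607, 584 and 1749. In JB6 libraries alone the cortex change of Flt1 was -0.026 (adjusted p = 0.941) and that of Col1a2 -0.099 (adjusted p = 0.688), both higher at P0 over all libraries; the cause was not tested. Leaving out each library in turn gave 5928 to 6554 culture, 8310 to 8561 cortex and 5468 to 5889 interaction calls, with 4159 to 4577 shared, 645 to 788 opposite, 673 to 772 culture-only and 2072 to 2419 cortex-only genes. Over all values of named genes under the alternatives, 8902 kept direction and side of the threshold, 196 no longer passed, 14 newly passed and 2 changed sign. The median interaction was 0.12 with TMM, 0.05 with relative log expression, 0.22 with library size and 0.05 with DESeq2. Leaving out any 1 of 5 E13.5 libraries changed the library TMM scales to, and 48.8% to 48.9% of culture calls were then higher at d21, against 58.3% with all libraries. Limiting the fit to features in all 4 tables is the same as the fit reported.

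With the replicate number as a block, 5990 genes passed in culture, 8241 in cortex and 5471 in the interaction, with 4210 shared, 632 opposite, 704 culture-only and 2218 cortex-only genes. Deviations of same-numbered libraries correlated between -0.1702 and 0.1444. With 2 libraries a group in culture the deviations mirror each other, so each cross gives 1 value there (0.0017 in BJ1 and -0.1702 in JB6). These values do not show whether same-numbered libraries were handled together. With the numbers of the d21 JB6 libraries crossed, an alternative added after seeing the data, the counts were 6134, 8283, 5567, 4311, 646, 724 and 2200.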

Other observations

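Gene families outside the lists were examined after their values were seen and are given as description. Over all genes 33.8% were higher and 24.1% lower in culture, and 38.5% higher and 38.6% lower in cortex. Of 10 tested keratins, 8 were higher and none lower at d21, and in cortex 2 were higher and 4 lower at P0 (medians 2.38 and -1.09). Of 41 interferon-induced and guanylate-binding genes, 33 were higher and none lower in culture, against 12 higher and 8 lower in cortex (medians 1.21 and 0.31). Of 48 ribosomal protein genes, 46 were lower in culture and 44 in cortex (medians -0.99 and -0.87). Protocadherin cluster genes, adhesion molecules of neurons, were higher in 36 of 44 in culture and in 44 of 44 in cortex (medians 1.07 and 1.97). Of 50 potassium channel subunits, 26 were higher and 2 lower in culture, against 40 higher and 4 lower in cortex.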
